A study of Homo sapiens with 108 samples.

Results

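The genes described are 8 that encode the main proteins of non-homologous end joining, together with PARP1: PRKDC, XRCC4, XRCC5, XRCC6, LIG4, DCLRE1C, NHEJ1 and PARP1. They were chosen by name, and a probe was taken where the array's gene annotation gave it one of these symbols and no other. This gave 12 probes out of 54359 on the array, of which 11 probes of 7 genes passed a filter on dim and missing signal that left 32060 probes. The probe of XRCC4 did not pass.

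RNA came from 6 human melanoma cell lines, named MeWo, HMV-II, HMV-I, Colo679, C32TG and 92-1. Each line was irradiated with 2 Gy of carbon ions and sampled at 1 h and at 3 h, and cells labelled 0Gy stood beside them. It was separately irradiated with 2 Gy of X-rays, sampled at the same times, and given a 0Gy set of its own. The resulting 36 groups held 3 single-colour CodeLink arrays each, 108 in all. No label ties the 3 arrays of a group to separate cultures, so tests within a line measure the spread between arrays, which may be technical. Carbon ions are charged particles that deposit energy more densely along their track than X-rays do. Each line is one established tumour culture, and the labels name no normal cells for comparison.

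Array medians lay between 1.02 and 1.32 in the deposited intensity units, and arrays of one group correlated at 0.987 to 0.998. Most melanocyte markers were bright in most lines but dim in HMV-I, where the median deposited intensity in 0Gy cells was 2.38 for PMEL, 0.429 for MLANA, 0.661 for TYR and 0.386 for TYRP1, against 53.6 to 726 for PMEL in the other 5 lines. MITF, the melanocyte regulator, was above the array medians in HMV-I too, at 15.8, against 110 to 243 in the other lines. SOX10 was dim in every line, at 0.560 to 1.66, and MLANA was at 1.53 in C32TG. S100B was at 0.855 in HMV-I and lower, at 0.685, in 92-1, against 6.68 to 34.3 in the other lines. TYRP1 was at 3.02 in C32TG and 7.08 in Colo679, against 22.2 to 280 in 92-1, HMV-II and MeWo. Among the fibroblast markers, LUM reached 55.9 in MeWo, 25.1 in HMV-II and 10.96 in Colo679. DCN was at 5.33 in Colo679 and 5.04 in MeWo and at or below 0.675 in the other lines. Over all lines COL1A1 was at 3.30 to 4.74, COL1A2 at 0.754 to 1.155 and COL3A1 at 0.343 to 0.444. Leukocyte markers were at or below 0.577. HMV-I is called here by its name. The part of these differences in the values below was not tested.

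Non-homologous end joining rejoins the ends of a broken DNA molecule without a matching template. The Ku heterodimer, made of the products of XRCC6 (Ku70) and XRCC5 (Ku80), slides onto each end and recruits DNA-PKcs, the large kinase encoded by PRKDC. DNA-PKcs activates Artemis, the nuclease encoded by DCLRE1C, which opens and trims ends that cannot be joined directly. DNA ligase IV (LIG4), held by its partner XRCC4 and helped by XLF (NHEJ1), seals the ends. PARP1 senses DNA strand breaks, builds poly(ADP-ribose) chains at them, and belongs mainly to single-strand break repair and to an alternative end-joining route. Much of the response of this pathway to radiation is carried by proteins already present in the cell, which arrays of RNA do not measure.

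Promoter windows are shown for XRCC6 and PARP1, the brightest members, and for both annotated starts of DCLRE1C, because the highest and lowest lines of one probe of that gene were the lowest and highest of another. Each window is the 250 bases before an annotated start, 5′ to 3′ on the gene's strand, from RefSeq on GRCh38.p14. XRCC6 lies at chr22:41621045-41621294 on the plus strand and PARP1 at chr1:226408094-226408343 on the minus strand. The DCLRE1C windows lie at chr10:14954433-14954682 and chr10:14954097-14954346 on the minus strand. Capitals mark matches on either strand to 6 short motifs. They are the TATA box, searched as the letters TATAAA, and the upstream box spelled CCAAT. The GC box was searched as the letters GGGCGG, the cAMP response element core as the letters TGACGT, the ETS motif as the letters CCGGAAG and the NRF1 core as the letters TGCGCA.
XRCC6: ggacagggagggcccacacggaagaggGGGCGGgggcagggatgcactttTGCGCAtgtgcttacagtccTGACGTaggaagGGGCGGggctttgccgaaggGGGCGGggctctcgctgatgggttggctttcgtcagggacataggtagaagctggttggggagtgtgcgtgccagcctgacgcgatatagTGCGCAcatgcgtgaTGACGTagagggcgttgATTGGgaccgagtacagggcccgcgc
PARP1: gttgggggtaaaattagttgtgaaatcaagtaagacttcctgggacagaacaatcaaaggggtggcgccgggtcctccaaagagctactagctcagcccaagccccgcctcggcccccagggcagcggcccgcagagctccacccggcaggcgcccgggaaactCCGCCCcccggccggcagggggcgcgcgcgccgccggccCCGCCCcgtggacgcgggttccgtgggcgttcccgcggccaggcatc
DCLRE1C, farther start: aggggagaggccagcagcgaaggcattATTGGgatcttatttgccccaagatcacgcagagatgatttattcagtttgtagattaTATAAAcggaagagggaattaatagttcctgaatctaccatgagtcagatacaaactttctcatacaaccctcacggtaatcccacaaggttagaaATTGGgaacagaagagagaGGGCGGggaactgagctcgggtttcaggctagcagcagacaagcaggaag
DCLRE1C, nearer start: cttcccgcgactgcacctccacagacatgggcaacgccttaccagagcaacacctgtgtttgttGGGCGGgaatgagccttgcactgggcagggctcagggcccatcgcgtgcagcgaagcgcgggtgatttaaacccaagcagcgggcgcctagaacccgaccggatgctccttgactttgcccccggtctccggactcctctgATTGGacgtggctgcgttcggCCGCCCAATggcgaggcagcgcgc

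Of all 35116 windows of this length, 10.7% held TATAAA, 32% CCAAT, 42.6% GGGCGG, 7.1% TGACGT, 8.52% CCGGAAG and 6.89% TGCGCA. The XRCC6 window held 3 GC boxes, 2 cAMP response element cores, 2 NRF1 cores and 1 CCAAT box. The PARP1 window held 2 GC boxes and was 70.4% G and C. The DCLRE1C window of the farther start was 45.6% G and C, with 1 TATA box, 2 CCAAT boxes and 1 GC box. The window of the nearer start was 64.4% G and C, with 2 CCAAT boxes and 2 GC boxes, 1 of each overlapping. A match of letters is a description and not a bound site. Windows were also listed for XRCC4, LIG4 and NHEJ1. XRCC5 was not listed, and PRKDC was not looked up.

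The members differed widely in brightness. Signal depends on each probe's own sequence, so brightness places a probe within the array and gives no ratio between genes. The PARP1 probe was brighter than 99.7% of probes and the XRCC6 probe brighter than 99.6%. In their brightest arrays these came within 0.807 and 0.913 log2 of the brightest spot, so changes there may be compressed, which was not tested. The XRCC5 probe was brighter than 95.6% of probes, the PRKDC probes 103094 and 67090 brighter than 96.6% and 94%, and the DCLRE1C probes 119033, 363019 and 58041 brighter than 93.5%, 87% and 80.2%. NHEJ1 was at 73.8%, the PRKDC probe 376107 at 56.2% and LIG4 at 54.6%. XRCC4, the ligase partner, was brighter than 18.1% of probes, with a median deposited intensity of 0.476 and a range of 0.299 to 3.79 over the 106 arrays with a value, and it was not tested.

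PRKDC was read by 3 probes, of which only 376107 was called across lines after irradiation. The annotation ties probes 103094 and 67090 to one transcript record and the dimmer probe 376107 to another. The transcript positions of the probes were not analysed here. Over the 36 group means, 103094 and 67090 correlated at 0.863, and 103094 and 376107 at 0.317, as a description over groups that share lines and array sets.

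The signal of PRKDC probe 376107 was lower after carbon ions in all 6 lines. In MeWo the normalised intensities were 1.11, 1.24 and 1.22 at 1 h after carbon ions and 1.36, 1.26 and 1.00 at 3 h, against 1.91, 2.13 and 1.91 in the 0Gy cells of that set. In C32TG they were 0.808, 0.895 and 0.920 at 1 h and 1.10, 1.15 and 1.13 at 3 h, against 1.26, 1.37 and 1.27 in 0Gy cells. In 92-1 they were 1.88, 1.95 and 1.75 at 1 h and 1.90, 1.71 and 1.95 at 3 h, against 2.20, 2.28 and 2.44 in 0Gy cells. In these lines no array irradiated with carbon ions reached the lowest 0Gy array of the carbon-ion set of that line. In MeWo the lowest 0Gy array of both sets, from the X-ray set, was at 1.18, below some of the irradiated arrays. In HMV-I the values were 1.13, 1.10 and 1.34 at 1 h and 1.07, 1.34 and 1.38 at 3 h, against 1.49, 1.44 and 1.53 in 0Gy cells, again without overlap. In HMV-II they were 1.11, 1.42 and 1.19 at 1 h and 0.907, 0.866 and 1.14 at 3 h, against 1.24, 1.48 and 1.82 in 0Gy cells. Here the 1 h arrays overlapped the 0Gy arrays and the 3 h arrays did not. In Colo679 they were 0.915, 1.09 and 0.955 at 1 h and 1.19, 0.986 and 0.985 at 3 h, against 1.10, 1.65 and 1.51 in 0Gy cells, where 1 array at 3 h lay above the lowest 0Gy array.

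Averaged over the 6 lines, with each line counted once, this probe changed by -0.456 log2 at 1 h after carbon ions (SD 0.18, n = 6, 95% interval -0.596 to -0.316), or 0.729-fold. The limma test across lines, with Benjamini-Hochberg adjustment over all 32060 probes, gave an adjusted p of 0.00136. At 3 h the change was -0.423 (SD 0.213, 95% interval -0.588 to -0.258), with an adjusted p of 0.00714. The size by line at 1 h ran from -0.736 in MeWo to -0.282 in HMV-II, and at 3 h from -0.723 in MeWo to -0.202 in C32TG. In 0Gy cells this probe was higher in the carbon-ion set than in the X-ray set by 0.559 in MeWo and 0.487 in HMV-I. Both differences were called by limma within the line. The same difference was 0.265 in HMV-II, 0.114 in Colo679, -0.169 in 92-1 and -0.292 in C32TG. Its part in the falls was not tested. Probe 376107 was the only 1 of the 11 probes called at 1 h after carbon ions, where 10.7% of all probes tested were called in either direction and 6.03% as lower. The members' share was thus no larger than the share of all probes called in either direction. It was above the share called lower, but rested on this 1 probe, and the excess was not tested. In bulk RNA, fewer cells with the transcript and less of it per cell cannot be told apart.

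After X-rays the same probe was again lower at 3 h. In Colo679 the intensities at 3 h were 0.864, 0.730 and 0.773, against 1.22, 1.15 and 1.54 in the 0Gy cells of the X-ray set. In 92-1 they were 1.98, 1.83 and 1.63, against 2.38, 2.77 and 2.65 in 0Gy cells. In MeWo the arrays with a value at 3 h read 0.917 and 0.881, with 1 value missing, against 1.18, 1.35 and 1.53 in 0Gy cells. The groups did not overlap in these lines. In HMV-I the values overlapped, at 1.16, 1.03 and 0.883 against 1.04, 0.981 and 1.16 in 0Gy cells. Across lines the change at 3 h was -0.401 (SD 0.264, n = 6, 95% interval -0.580 to -0.223), lower in 6 of 6 lines, with a limma adjusted p of 0.0130. It was the 1 member probe called there, where 7.14% of all probes were called and 4.18% as lower. Without replicate 3 of every group the adjusted p was 0.0670.

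At 1 h after X-rays this probe was called only where 1 array was left out by itself. In C32TG the values at 1 h were 1.21, 1.17 and 7.05, against 1.63, 1.54 and 1.59 in 0Gy cells, so that 2 arrays lay below every 0Gy array and the third far above. With every array kept, the change across lines was -0.149 (SD 0.322, 95% interval -0.351 to 0.052) and was not called, with a limma adjusted p of 0.534 and 5 of 6 lines lower. Without that array, an omission chosen after its value was seen, it was -0.292 (SD 0.159) with a limma adjusted p of 0.0308. Over all probes 1.15% were called at 1 h after X-rays with every array, 0.786% as lower, and 1.3% without that array. The difference between carbon ions and X-rays at 1 h for this probe was -0.307 with every array and -0.164 without it, with limma adjusted p of 0.613 and 0.644.

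**Figure D1:**
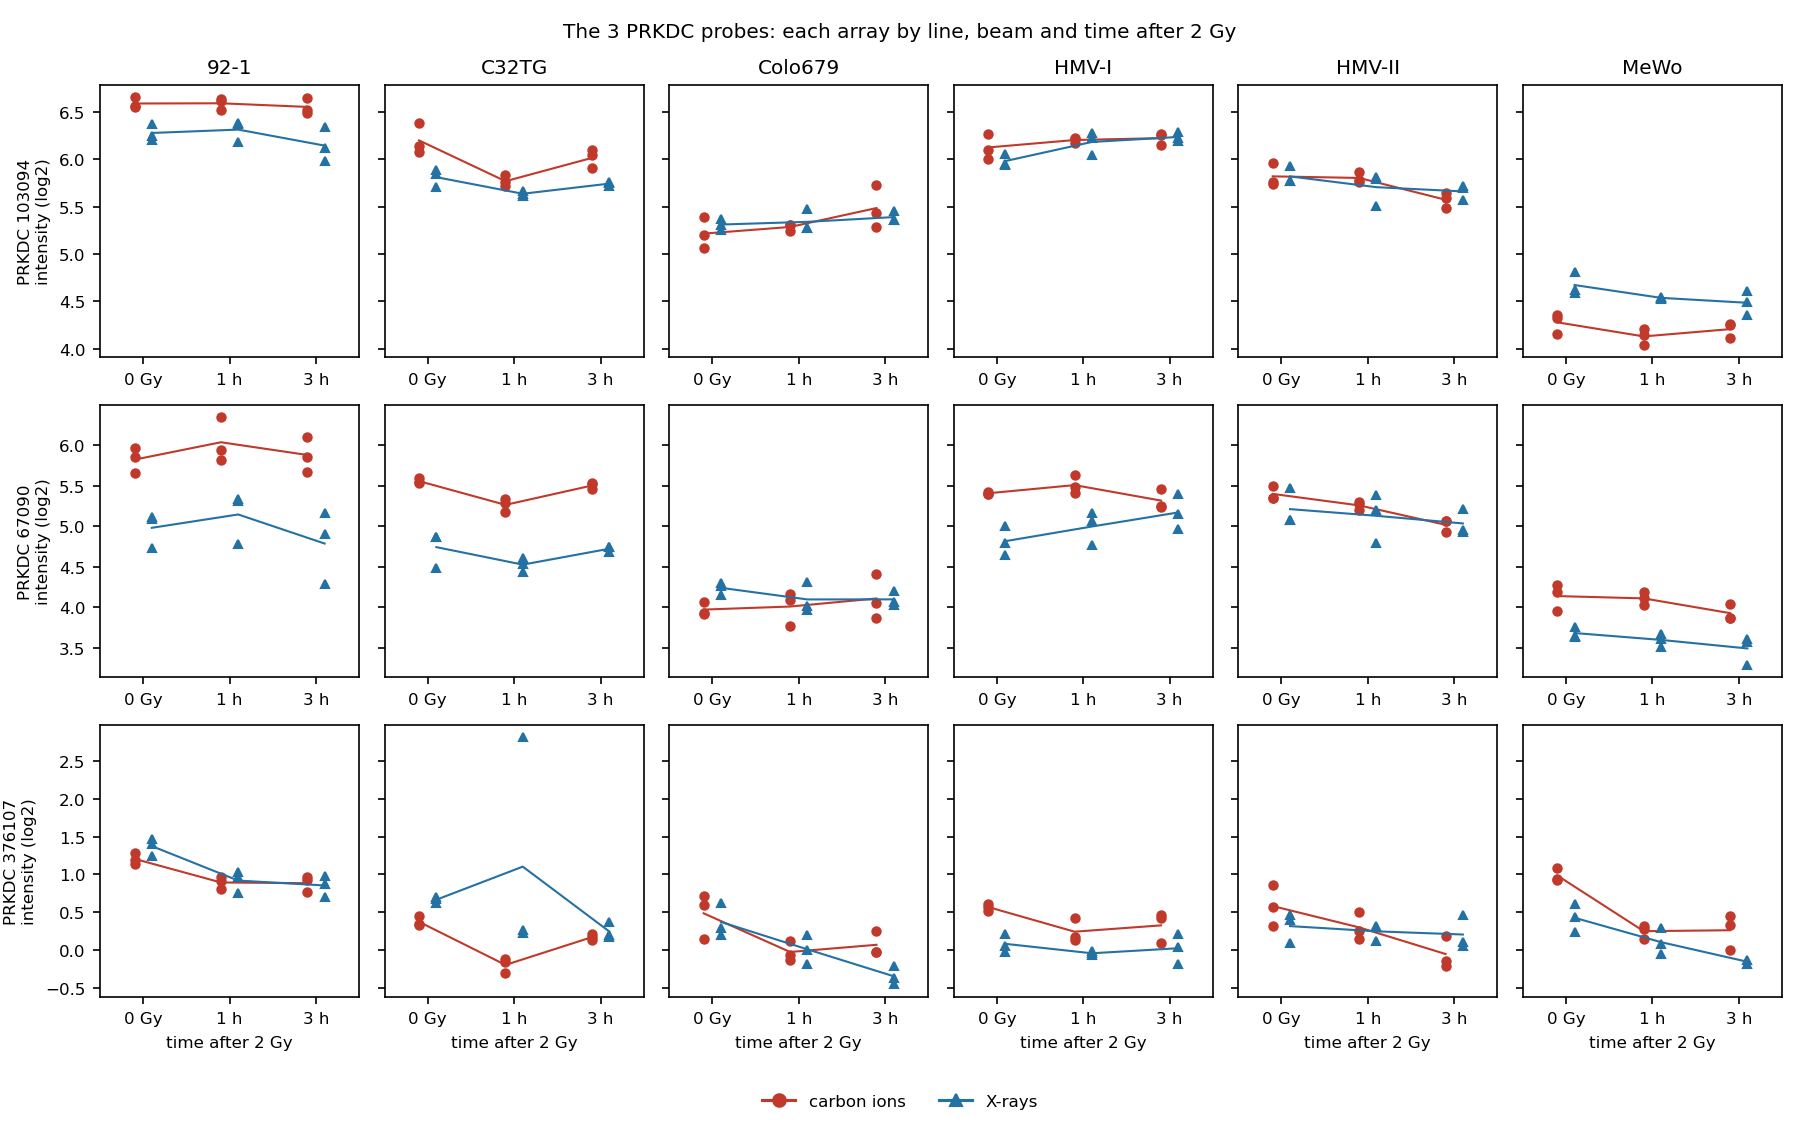
Normalised intensity, in log2, of the 3 PRKDC probes (rows) in each line (columns) at 0 Gy, 1 h and 3 h, with 1 point for each array, circles for the carbon-ion set, triangles for the X-ray set and lines through the means. In the lowest row the third C32TG array at 1 h after X-rays, at 7.05 on the linear scale, stands above all others, and irradiated MeWo arrays of the carbon-ion set lie below their 0 Gy arrays.

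The brighter PRKDC probes were not called across lines. Probe 103094 had a mean change of -0.074 (SD 0.193, 95% interval -0.210 to 0.061) at 1 h and of -0.029 (SD 0.189, -0.174 to 0.117) at 3 h after carbon ions. After X-rays its mean change was -0.026 (SD 0.142, -0.135 to 0.082) at 1 h and -0.036 (SD 0.171, -0.168 to 0.097) at 3 h. Probe 67090 had mean changes of -0.018, -0.090, -0.030 and -0.061 in the same order. The difference between the probes' changes was not tested.

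Within single lines the bright PRKDC probes were called together, lower in C32TG and higher in HMV-I, at different times and after different beams. In C32TG at 1 h after carbon ions, probe 103094 read 54.1, 52.7 and 56.8, against 83.7, 67.3 and 70.5 in 0Gy cells, a change of -0.431, and 67090 changed by -0.292. Both were called in the limma fit within that line. The fall of 67090 was lost in each fit that left out 1 replicate. In HMV-I at 3 h after X-rays, 103094 read 73.3, 78.0 and 74.8, against 61.6, 66.5 and 61.5 in 0Gy cells, a change of 0.254, and 67090 changed by 0.354. Both were called within HMV-I and neither call held in fits leaving out 1 replicate. A test for differences between lines in the change at 1 h, averaged over the beams, gave a limma adjusted p of 0.282 for 103094 and 0.216 for 67090, where 0.0312% of all probes were called. The same test at 3 h gave a limma adjusted p of 0.345 for 103094 and 0.571 for 67090, where 0.187% of all probes were called.

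The Ku genes were not called in any of the 4 changes across lines. XRCC5, encoding Ku80, was higher at 3 h after carbon ions in 6 of 6 lines, by 0.018 in C32TG to 0.266 in Colo679, with a mean of 0.141 (SD 0.08, n = 6, 95% interval 0.039 to 0.243). Its limma adjusted p was 0.0677. This depended on scaling: with arrays centred on their medians the change was 0.276 with a limma adjusted p of 0.0106, and with the values as deposited 0.196 with 0.0385. At 1 h after carbon ions the mean change was 0.096 (SD 0.081), with an adjusted p of 0.144 by limma. After X-rays it was 0.031 (SD 0.121) at 1 h and 0.045 (SD 0.13) at 3 h. In Colo679 XRCC5 read 49.97, 56.9 and 55.7 at 3 h after carbon ions, against 43.7, 44.8 and 46.6 in 0Gy cells, and this was its 1 call among lines, which was lost without replicate 2 or replicate 3.

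XRCC6, encoding Ku70, had a mean change of -0.061 (SD 0.068, 95% interval -0.145 to 0.022) at 1 h and -0.026 (SD 0.126, -0.145 to 0.093) at 3 h after carbon ions. After X-rays its mean change was -0.015 (SD 0.211) at 1 h and -0.097 (SD 0.242) at 3 h. The widest change was in Colo679 at 3 h after X-rays, where the arrays read 230, 264 and 261, against 377, 383 and 327 in 0Gy cells. That change was -0.524 with a limma adjusted p of 0.00137 within the line, and it stayed called under all 11 alternatives that were run. In HMV-I at the same time the XRCC6 difference was 0.112. The difference between lines in the change at 3 h gave a limma adjusted p of 0.547, where 0.187% of all probes were called.

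DCLRE1C, encoding Artemis, was lower on probe 119033 at 3 h after carbon ions in all 6 lines. In HMV-II the intensities were 25.9, 24.6 and 22.3, against 32.5, 28.3 and 26.4 in 0Gy cells. In Colo679 they were 19.2, 20.1 and 19.6, against 21.7, 23.8 and 23.3 in 0Gy cells. Neither line's groups overlapped. In 92-1 they were 40.8, 32.9 and 32.5, against 38.3, 41.1 and 43.3 in 0Gy cells, with 1 array inside the 0Gy range. In MeWo, with the smallest change, they were 16.5, 17.5 and 17.0, against 18.9, 17.8 and 17.7 in 0Gy cells. Across lines the change was -0.190 (SD 0.06, n = 6, 95% interval -0.287 to -0.093), or 0.877-fold, with a limma adjusted p of 0.0202. The 2 called members at 3 h after carbon ions, this probe and PRKDC 376107, stand beside 13.4% of all probes called there in either direction and 6.98% as lower. The members' share was near the first and above the second, but rested on these 2 probes, and the excess was not tested. The DCLRE1C call was lost with median centring, with the values as deposited, and on leaving out 92-1, Colo679, HMV-I or HMV-II, where the adjusted p by limma reached 0.190.

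The other DCLRE1C probes were not called across lines. Probe 363019 had a mean change of -0.163 (SD 0.133, 95% interval -0.284 to -0.041) at 3 h after carbon ions, with a limma adjusted p of 0.0743, and of -0.087 (SD 0.228) at 3 h after X-rays. Probe 58041 was lower in 6 of 6 lines at 3 h after X-rays, by -0.242 in MeWo to -0.081 in 92-1, with a mean of -0.147 (SD 0.057) and a limma adjusted p of 0.0932. Probe 119033 had a mean change of -0.136 (SD 0.136) at 3 h after X-rays, and at 1 h of -0.112 (SD 0.115) after carbon ions and -0.047 (SD 0.14) after X-rays. Within lines, 119033 was called lower in Colo679 at 3 h after carbon ions, by -0.221, and in HMV-II at 3 h after X-rays, by -0.369, where the arrays read 27.9, 23.8 and 28.8 against 36.2, 32.4 and 35.2 in 0Gy cells. Both calls were lost in every fit that left out 1 replicate.

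**Figure D2:**
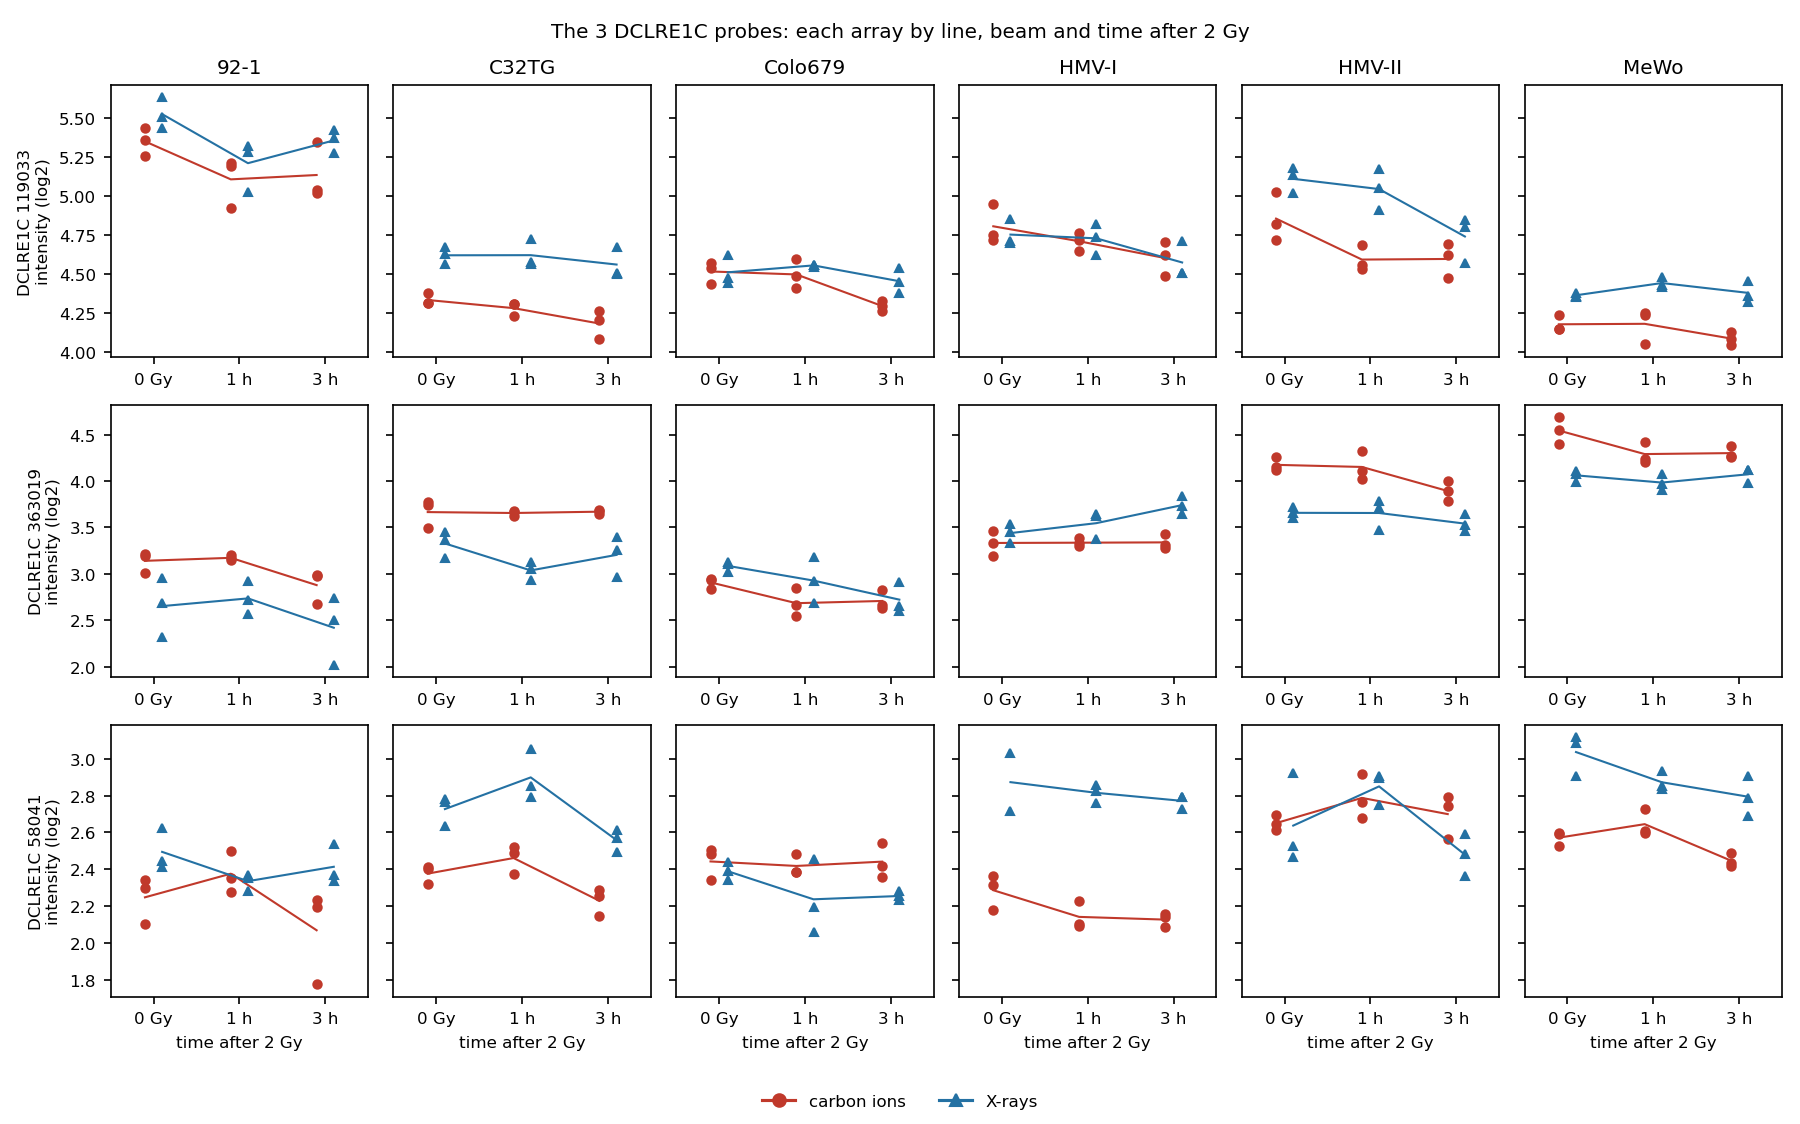
Normalised intensity, in log2, of the 3 DCLRE1C probes (rows) in each line (columns) at 0 Gy, 1 h and 3 h, with 1 point for each array, circles for the carbon-ion set, triangles for the X-ray set and lines through the means. On probe 119033 all 6 lines averaged lower at 3 h after carbon ions, by -0.259 log2 in HMV-II to -0.091 in MeWo.

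Of the ligation genes, LIG4 had a mean change of 0.058 (SD 0.205, 95% interval -0.094 to 0.210) at 1 h and 0.061 (SD 0.147, -0.076 to 0.198) at 3 h after carbon ions. After X-rays its mean change was -0.052 (SD 0.129) at 1 h and 0.112 (SD 0.183) at 3 h. In HMV-II at 1 h after carbon ions the arrays read 1.40, 1.26 and 2.64, against 1.21, 1.19 and 1.30 in 0Gy cells, so that the change of 0.439 there rested on 1 array above the 0Gy range by far. In HMV-I at 3 h after X-rays they read 1.56, 1.39 and 1.58, against 1.10, 1.07 and 1.201 in 0Gy cells, without overlap, a change of 0.425. Neither was called within its line. NHEJ1, encoding XLF, had mean changes of -0.026 (SD 0.156), 0.015 (SD 0.208), 0.042 (SD 0.066) and -0.057 (SD 0.092) at 1 h and 3 h after carbon ions and 1 h and 3 h after X-rays. Its 1 call within a line was in MeWo at 3 h after carbon ions, at 1.41, 1.18 and 1.44 against 1.82, 1.88 and 1.37 in 0Gy cells, where the groups overlapped and the call was lost without replicate 1 or replicate 2.

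PARP1 was not called across lines, with a mean change of 0.037 (SD 0.128, 95% interval -0.069 to 0.142) at 1 h and 0.052 (SD 0.122, -0.065 to 0.170) at 3 h after carbon ions, and of 0.033 (SD 0.137) and 0.042 (SD 0.108) at 1 h and 3 h after X-rays. With median centring the change at 3 h after carbon ions was 0.286 with a limma adjusted p of 0.0186, and with the values as deposited 0.205 with 0.0413. This bright probe therefore gave a call or none according to scaling. Within HMV-I it was called higher at 3 h after X-rays, by 0.244, and the call was lost in every fit that left out 1 replicate.

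The limma test called no member for a difference between carbon ions and X-rays at 1 h or at 3 h, and 0% of all probes. At an unadjusted p under 0.05 there was 1 member probe at 1 h and 0 at 3 h, beside 7.55% and 4.46% of all probes. For PRKDC 376107 the difference at 3 h was -0.022 (SD 0.317, 95% interval -0.246 to 0.202), and for DCLRE1C 119033 it was -0.054 (SD 0.094, -0.192 to 0.084). No member was called by limma for 3 h minus 1 h, where 4.51% of all probes were called. An unadjusted p under 0.05 was found for 3 member probes, beside 22.3% of all probes. For DCLRE1C 58041 that difference was -0.129 (SD 0.116, -0.222 to -0.036), with a limma adjusted p of 0.108.

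**Figure D3:**
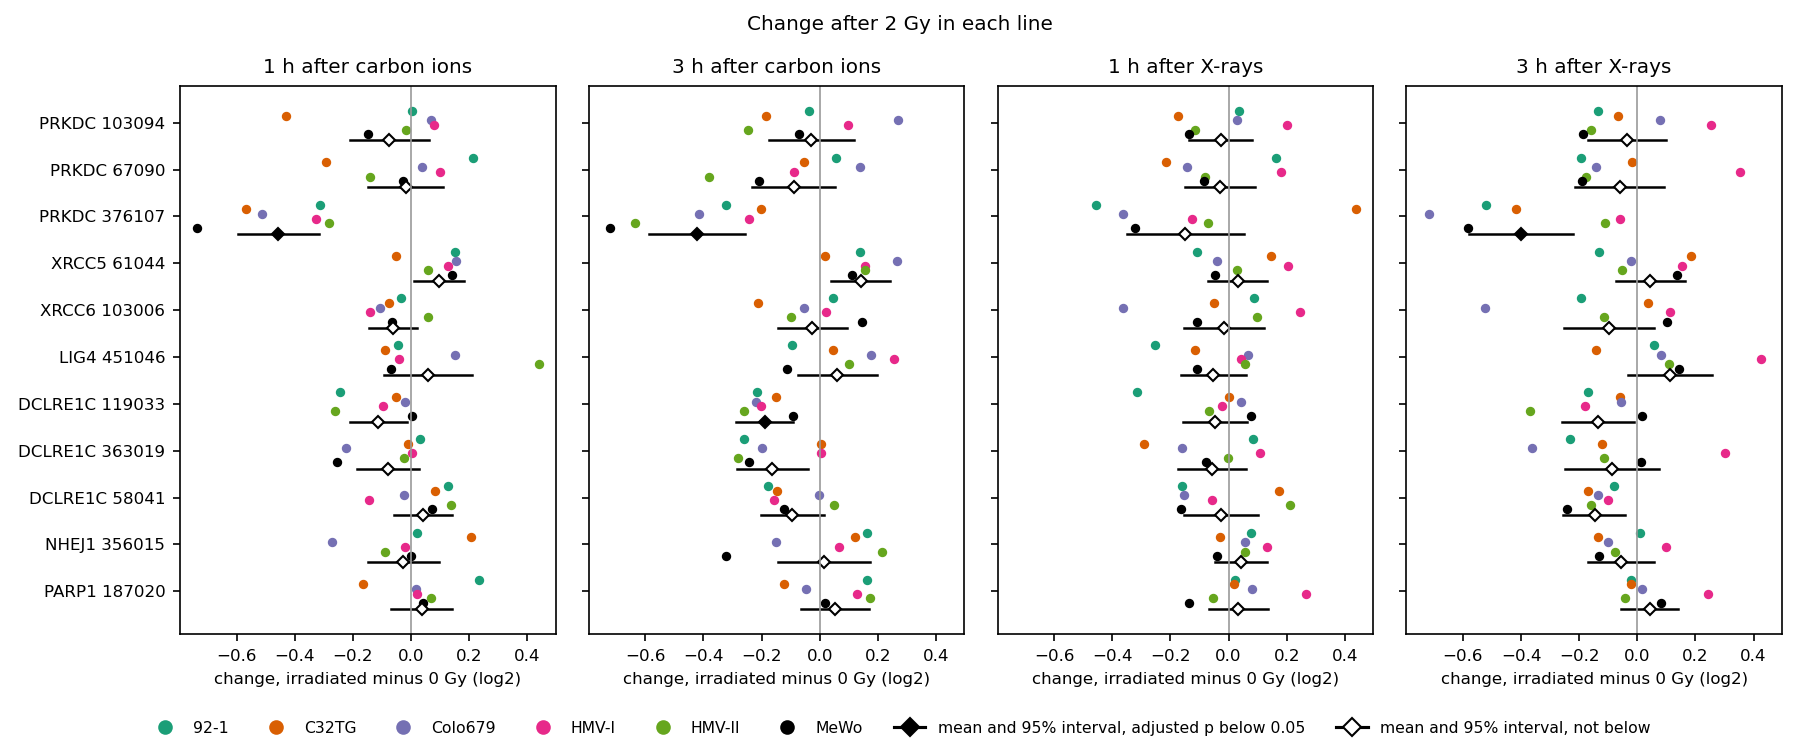
Change against the 0 Gy cells of the same beam, in log2, for the 11 member probes (rows), with 1 panel for each beam and time, 1 coloured point for each line, and diamonds with 95% intervals for the mean of the 6 lines, filled where the adjusted p was below 0.05. PRKDC probe 376107 lies below 0 in all 6 lines at 1 h and 3 h after carbon ions and at 3 h after X-rays, while most other probes spread over both sides of 0.

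Counted within lines, the 11 probes gave 66 pairs of probe and line in each comparison. At 1 h after carbon ions 0 pairs were called higher and 4 lower, or 6.06%, against 5.12% of all pairs of probe and line. At 3 h after carbon ions 1 was higher and 6 lower, or 10.6% against 12.9%. After X-rays, 0 were higher and 1 lower at 1 h, or 1.52% against 1.8%, and 4 were higher and 6 lower at 3 h, or 15.2% against 8.42%. Of the 22 calls 8 were falls of PRKDC 376107, in 92-1, Colo679, HMV-II and MeWo. C32TG gave none for this probe with every array kept. Without the array at 7.05 the changes in C32TG were -0.569 at 1 h after carbon ions (adjusted p of 2.96e-05 by limma), -0.419 at 1 h after X-rays (0.00369) and -0.419 at 3 h after X-rays (0.00103), while -0.202 at 3 h after carbon ions was not called (0.0824).

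Unirradiated levels of most member probes differed between lines, at a share near that of all probes. An F test by limma over the 6 lines, with the 2 sets of 0Gy cells of each line as its replicates, called 7 of the 11 probes, where 57.4% of all probes were called. PRKDC 103094 had the widest range of them, with 92-1 higher than MeWo by 3.89-fold and a limma adjusted p of 9.93e-05. Over the 6 unirradiated arrays of a line it ran from 73.9 to 101 with a median of 88.4 in 92-1, and from 17.7 to 28.0 with a median of 22.3 in MeWo. The medians between them were 65.4 in HMV-I, 63.1 in C32TG, 54.4 in HMV-II and 38.9 in Colo679. Neighbours in these orders were compared on the means of the carbon-ion and X-ray sets of each line. By these C32TG overlapped both HMV-I above it and HMV-II below it, and 92-1, Colo679 and MeWo stood clear of their neighbours. Probe 67090 also put 92-1 highest and MeWo lowest, 2.80-fold apart (limma adjusted p 0.00879). Probe 376107 put 92-1 highest, at a median of 2.41, and HMV-I lowest, at 1.30, with the other lines overlapping (limma adjusted p 0.0271, lost without 92-1).

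The Artemis probes 119033 and 363019 exchanged the highest and lowest lines, while HMV-II was next to the highest on both. Probe 119033 was highest in 92-1, at 38.3 to 49.6 with a median of 43.3, and lowest in MeWo, at 17.7 to 20.8 with a median of 19.7, 2.24-fold apart (limma adjusted p 0.00197, lost without 92-1). Probe 363019 was highest in MeWo, at 15.9 to 25.8 with a median of 19.2, and lowest in 92-1, at 4.98 to 9.31 with a median of 7.91, 2.65-fold apart (limma adjusted p 0.00465). Probe 58041 ran from a median of 5.20 in 92-1 to 6.78 in MeWo and was not called (limma adjusted p 0.582). A single DCLRE1C level by line can thus not be given from these probes. The 36 group means of 119033 and 363019 correlated at -0.509.

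PARP1 was highest in MeWo, with a median of 424 and a range of 306 to 517, and lowest in HMV-II, with 187 and 169 to 208, 2.18-fold apart (limma adjusted p 0.00784). The medians between them were 293 in 92-1, 252 in C32TG, 223 in Colo679 and 210 in HMV-I. By set means MeWo stood clear of 92-1, and from 92-1 down to HMV-II each line overlapped the next. XRCC6 was highest in Colo679, at a median of 318, and lowest in HMV-I, at 159, 2.18-fold apart, with 301 in HMV-II, 226 in MeWo, 241 in C32TG and 183 in 92-1. The HMV-I median joined array sets that did not overlap, with means of 208 in the carbon-ion set and 110 in the X-ray set. In the carbon-ion set 92-1 was at 210, close to HMV-I. The call of XRCC6, at a limma adjusted p of 0.0290, was lost without Colo679, HMV-II or replicate 2. XRCC5 put Colo679 highest, at a median of 48.0, and HMV-I lowest, at 28.8, but was not called over lines (limma adjusted p 0.219). LIG4 medians lay between 1.04 and 1.36 (limma adjusted p 0.747).

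NHEJ1 was at medians of 3.77 in 92-1, 4.69 in C32TG, 4.31 in Colo679 and 3.91 in HMV-II, against 2.99 in MeWo and 1.92 in HMV-I. The F test missed the threshold, with a limma adjusted p of 0.0595. HMV-I alone against the other lines was -1.0 log2 with a limma adjusted p of 0.0183, where 15.9% of all probes were called lower in HMV-I. The MeWo median joined array sets that did not overlap, described below.

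**Figure D4:**
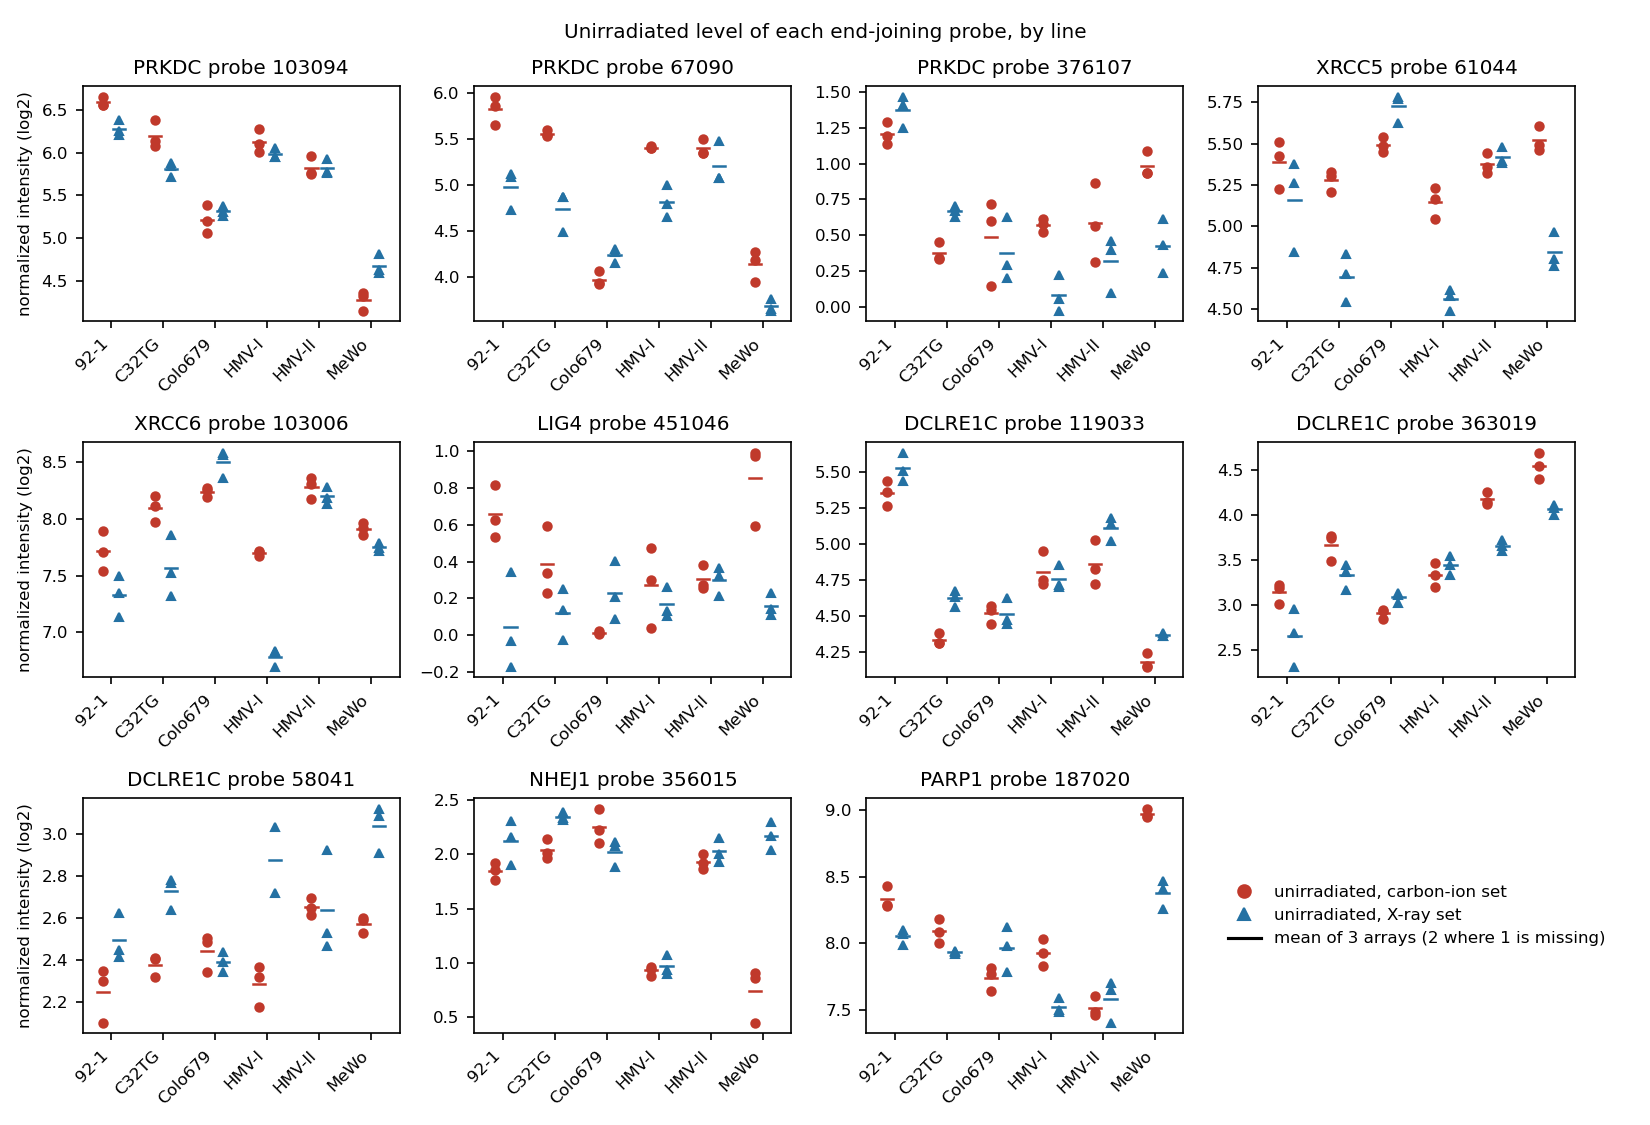
Normalised intensity, in log2, of the 11 member probes in unirradiated cells, with 1 panel for each probe, lines along the axis, 1 point for each array (circles for the carbon-ion set, triangles for the X-ray set) and bars at the means. PRKDC 103094 is highest in 92-1 and lowest in MeWo, and NHEJ1 in MeWo splits by set.

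The 0Gy cells of the carbon-ion and X-ray sets, which carried no dose, differed within lines. Of the 66 pairs of probe and line, 23 were higher and 9 lower in the carbon-ion set, or 48.5% in all, against 17.3% higher, 17.2% lower and 34.4% in all over every probe. NHEJ1 in MeWo read 1.82, 1.88 and 1.37 in the carbon-ion set, against 4.50, 4.94 and 4.10 in the X-ray set, a difference of -1.43. The gap ran through irradiated cells as well: the 9 MeWo arrays of the carbon-ion set lay between 1.18 and 1.88 and the 9 of the X-ray set between 3.85 and 4.94. XRCC6 in HMV-I read 208, 204 and 211 in the carbon-ion set, against 104, 113 and 114 in the X-ray set, a difference of 0.912. XRCC5 in MeWo read 44.1, 48.7 and 45.01, against 27.9, 31.2 and 27.2, a difference of 0.678, and PARP1 in MeWo read 497, 517 and 494, against 354, 339 and 306, a difference of 0.596. C32TG and MeWo had 10 of 11 probes called, HMV-I 6, 92-1 4, and Colo679 and HMV-II 1 each. The shares called over all probes were 42.3% in C32TG, 69.3% in MeWo and 46.1% in HMV-I. They were 14.5% in 92-1, 13.5% in Colo679 and 20.9% in HMV-II.

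The set difference was large beside the radiation changes. Its median size over the 66 pairs was 0.268 log2, against 0.0894 and 0.151 for the changes at 1 h and 3 h after carbon ions and 0.108 and 0.133 for those after X-rays. Over all probes the corresponding sizes were 0.182, against 0.101, 0.128, 0.0874 and 0.115. In 56.1% of the member pairs the set difference exceeded all 4 changes, against 44.1% over all probes. Across lines limma called no member for the sets, and 0% of all probes. An unadjusted p under 0.05 was found for 2 member probes, beside 9.72% of all probes. Every change above was taken against the 0Gy cells of its own set, and set and beam cannot be told apart in levels.

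**Figure D5:**
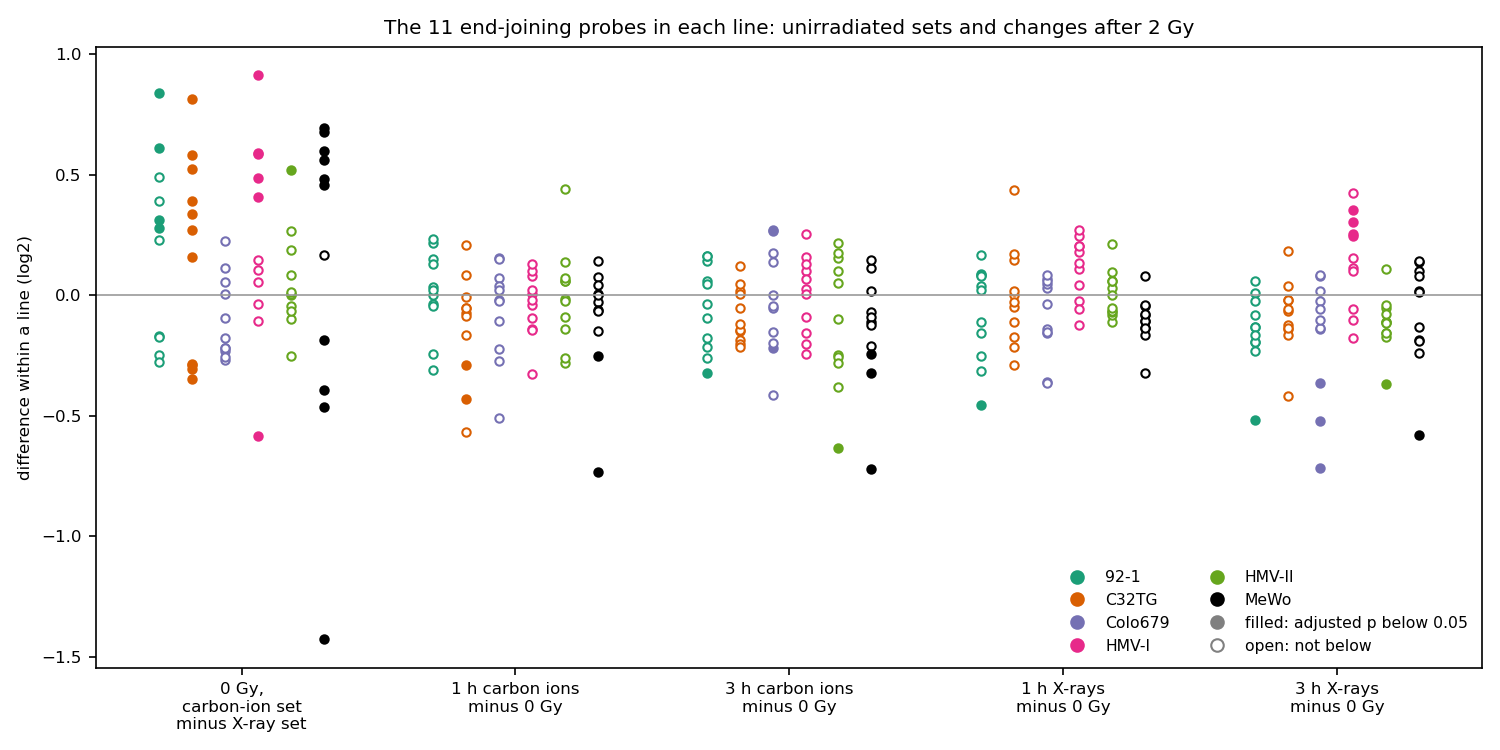
Differences within each line, in log2, for the 11 member probes: the unirradiated carbon-ion set minus the X-ray set, then the changes at 1 h and 3 h after each beam, with 1 point for each probe and line, coloured by line and filled where the adjusted p was below 0.05. NHEJ1 in MeWo at -1.43 and XRCC6 in HMV-I at 0.912 are the lowest and highest set differences.

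Related gene lists were read on the brightest probe of each gene. Of 25 p53 targets 23 were measured, and 7 and 14 were called higher at 1 h and 3 h after carbon ions, where 4.67% and 6.43% of all probes were. After X-rays 2 and 13 were called higher at 1 h and 3 h, where 0.368% and 2.96% of all probes were, and none was called lower after either beam. CDKN1A, a cell-cycle inhibitor induced by p53, changed by 1.198 at 3 h after carbon ions and 1.18 at 3 h after X-rays, with limma adjusted p of 0.00642 and 0.00706. The median change of the p53 list at 3 h after carbon ions was 0.544, against 0.015 for the 7 measured end-joining genes and 0.004 over all probes. Of 8 measured accessory end-joining factors 1 was called, POLL, a gap-filling polymerase, at 0.19 at 3 h after carbon ions (limma adjusted p 0.0382), and 9 alternatives lost it. There 6.43% of all probes were called higher and 13.4% in either direction. Among 11 measured genes of break signalling and 7 of alternative end joining and single-strand break repair limma called 0 at either time after either beam. At an unadjusted p under 0.05 there were 3 and 2 of them at 3 h after carbon ions, beside 30.8% of all probes. Among 11 measured genes of homologous recombination RAD52 fell by 0.211 at 1 h and by 0.182 at 3 h after carbon ions (limma adjusted p 0.0192 and 0.0401), and 3 and 8 alternatives lost these calls. RAD52 was the 1 gene of that list called at each of these times, where 6.03% and 6.98% of all probes were called lower. Of 18 proliferation genes 7 were lower and 1 higher at 3 h after carbon ions, beside 6.98% and 6.43% of all probes, and 2 lower and 1 higher at 3 h after X-rays, beside 4.18% and 2.96%. At 1 h after carbon ions 1 was lower and 0 higher, beside 6.03% and 4.67% of all probes. At 1 h after X-rays limma called 0, with 1 at an unadjusted p under 0.05, beside 13.8% of all probes.

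Likeness of pattern was read as the correlation over the 36 group means, on the brightest probe of each of 13661 genes. PRKDC was most like MTFR1 (0.966), GATA2-AS1 (0.956) and SYDE2 (0.950). XRCC5 was most like OPA1 (0.945), ALG6 (0.908) and KBTBD2 (0.904). XRCC6 was most like TTLL4 (0.934), TNS3 (0.933) and DUSP6 (0.905). LIG4 was most like TRUB1 (0.822), RMND5A (0.784) and NUS1 (0.782). DCLRE1C was most like TBX18-AS1 (0.910), OVGP1 (0.910) and CCDC138 (0.900). NHEJ1 was most like EIF3K (0.933), CFAP68 (0.932) and PCMTD2 (0.909). PARP1 was most like IL18BP (0.943), UPRT (0.893) and CNTN1 (0.889). These values describe groups that share lines and array sets. Among members, XRCC5 and XRCC6, the partners of Ku, correlated at 0.766, and at 0.762 after each line's mean was taken out. XRCC5 and PARP1 correlated at 0.856 and NHEJ1 and PARP1 at -0.760 within lines, where the set differences above enter both values.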

How the data were processed

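The authors deposited 1 linear intensity per probe and array, with its software and scaling not given in the sources used here. RNA was extracted with ISOGEN and RNeasy and labelled with biotin, per the labels' protocols. Probes with at most 10% missing values, a mean deposited log2 above the 40th percentile (-0.407) and a value in every group were kept and quantile normalised on the log2 scale. This order was settled after results under several orders had been seen, to follow the earlier processing of these data. Tests used limma 3.58.1 in R 4.3.3: changes against the same-beam 0Gy cells of a line were averaged over its 3 arrays and tested over 6 lines, baselines by an F test on 12 values (line by set), and single lines on their 18 arrays, with trend and Benjamini-Hochberg adjustment over all kept probes at 0.05. The fits were tested on simulated data. Named genes were all members, the lists' calls and the 3 most alike genes. The members and lists were chosen with earlier results of these data known. Arrays gave 1000 to 8034 missing values each, and their number limits the precision. Alternatives were median centring, deposited values, no level filter, other orders of normalisation, leaving out lines, replicates or 1 array, and fits on all arrays with and without a replicate block.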

Additional observations from a re-analysis of the deposited data

Results flagged for a closer look

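In 3 of 66 sets of 6 line values checked, 1 line stood apart from the other 5 by Dixon's criterion; chance gives about 1 in 20. At 3 h after X-rays PRKDC 67090 changed by 0.354 in HMV-I, with the other lines between -0.194 and -0.02. At 1 h after X-rays DCLRE1C 119033 changed by -0.314 in 92-1, with the others between -0.066 and 0.078. NHEJ1 differed by -1.429 between the unirradiated carbon-ion and X-ray sets of MeWo, with the other lines between -0.307 and 0.226.

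Some probes were called in opposite directions in different lines, and the difference between those lines was itself not tested. DCLRE1C 363019 at 3 h after X-rays changed by -0.364 in Colo679, with arrays at 7.51, 6.07 and 6.30 against 8.11, 8.64 and 8.74 in 0Gy cells. In HMV-I it changed by 0.301, with arrays at 12.5, 14.4 and 13.3 against 10.9, 11.6 and 10.1 in 0Gy cells. The Colo679 call was lost without replicate 2 or replicate 3, and the HMV-I call in every fit that left out 1 replicate. The F test over all lines at 3 h, averaged over beams, gave a limma adjusted p of 0.450. For the carbon-ion set minus the X-ray set without dose, PRKDC 103094 was at 0.311 in 92-1 and 0.388 in C32TG but at -0.394 in MeWo. XRCC5 was at 0.583 in C32TG, 0.587 in HMV-I and 0.678 in MeWo but at -0.233 in Colo679.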

How the results depend on the processing

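The falls of PRKDC 376107 after carbon ions kept their call under all 17 alternatives run, at -0.515 to -0.400 at 1 h and -0.492 to -0.363 at 3 h, with limma adjusted p up to 0.0106 and 0.0281. No called value reversed. The number of member probes called at 1 h after carbon ions was 1, and 2 with median centring, 2 as deposited, 3 with all arrays as replicates and 3 with the replicate block. At 3 h after carbon ions it was 2, and 5 with all arrays and 5 with the block, and 1 to 4 on leaving out a line or replicate. At 3 h after X-rays it was 1, and 3 with all arrays and 3 with the block, and 0 to 1 with parts left out. At 1 h after X-rays it was 0, and 1 without the third C32TG array, an alternative chosen after seeing the data. For 3 h minus 1 h it was 0, and 1 as deposited (DCLRE1C 58041, -0.182), 2 with all arrays and 2 with the block. For the unirradiated sets across lines it was 0, and 9 with all arrays and 9 with the block. The share of all probes called in the fits on all arrays is not given here, so these counts cannot be set against it. Within lines 22 calls became 12, 3 and 8 on leaving out replicate 1, 2 and 3, and 25 without the third C32TG array. Baseline calls stayed between 5 and 8. Deviations of same-numbered arrays correlated at over 0.1 in 17 of 72 pairs (range -0.219 to 0.385), with 6 of 12 in HMV-II and 4 of 12 in HMV-I. Other pairs were negative, down to -0.219 in C32TG and -0.175 in 92-1. The main tests did not pair arrays by number, and pairing within some lines cannot be told from these values. Median centring called 5237, 7086, 278 and 3671 of all probes (1 h and 3 h after carbon ions, then X-rays), with 66.9%, 76.5%, 47.5% and 70.4% higher; as deposited these shares were 50.7%, 38%, 31.7% and 24.4%, and with quantile normalisation before the filter 11.6%, 24.7%, 15% and 26.9%. The causes were not tested.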
